A study of Mus musculus with 12 samples.

Results

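Intermediate and Progenitor cells are the 2 stromal populations among 4 cell populations sorted from the mouse aorta and its surrounding fat. Their libraries were taken by label, 3 of Intermediate and 3 of Progenitor, 6 of the 12 libraries in the series. Of the 33352 genes in the deposited count table, 19016 had enough reads across the 12 libraries to be tested. Some of these pass through the other populations, and a filter on only the 6 libraries kept 16626. The other 6 libraries, 3 each of the smooth muscle populations SMC1 and SMC2, entered the filter on low counts, the scaling and the estimate of spread between replicates.

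The wall of an artery is wrapped in a loose outer coat, the adventitia, which passes into perivascular adipose tissue. Both layers hold fibroblast-like stromal cells that make collagen and elastic fibres, and some of these cells can give rise to adipocytes. Stromal progenitors are commonly recognised by Pdgfra, Cd34, Dpp4 and Ly6a, while commitment to the fat lineage brings on Pparg, the master regulator of adipocyte differentiation. Hedgehog, Wnt and BMP signals all act on the choice between adipocyte and matrix-producing fates in such cells.

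The source animals of all 6 libraries were wild-type CD-1 males, adult at 13 weeks, and no group carries an engineered allele or a treatment. CD-1 is an outbred strain. Aortas with perivascular fat were digested to single cells and sorted by flow cytometry, and poly(A) RNA was amplified with a SMART-Seq v4 kit, which makes full-length cDNA from very little RNA and does not mark the strand. The antibodies and gates of the sort are not given in the sources used here, and genes that define the gates may be among those that differ. Libraries of each group are numbered 1 to 3, but the labels do not say whether a number marks an animal. A p-value thus reflects how far libraries spread within groups, pooled over all 4 groups, which may be a technical matter only.

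Library totals were 19477075, 17064187 and 16089378 counts in Intermediate, and 22647175, 15014976 and 16823428 counts in Progenitor. Levels below are CPM, the count of a gene over the TMM-scaled total of its library, in the order of the replicate numbers, or means ± SD over n = 3 libraries. Changes are log2 differences, Intermediate minus Progenitor. The value after the ± of a change is a standard error worked out from that change and the F statistic of its test. A gene is said to have risen or fallen, or to be called, when its two-sided p from the quasi-likelihood test of edgeR, adjusted over the 19016 genes by the method of Benjamini and Hochberg, was below 0.05.

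Both populations expressed the genes that mark fibroblasts. Pdgfra, the receptor that marks most fibroblasts, stood at 769.8, 795 and 891 CPM in Intermediate, against 814, 582 and 1131 CPM in Progenitor. Its ranges overlapped, and its log2 change was -0.04 ± 0.21. Cd34 stood at 1487, 1143 and 1071 CPM in Intermediate, against 1984, 1919 and 1905 CPM in Progenitor. Every Intermediate library was below every Progenitor library, but the gene was not called (-0.65 ± 0.28, edgeR adjusted p = 0.112). It was called lower with no filter on low counts (0.0226), with only the 6 libraries (0.00887) and with those and the replicate block (0.0038). The collagen and proteoglycan genes Col3a1, Lum and Dcn were not called either, with means of 31845 CPM in Intermediate and 29799.7 CPM in Progenitor for Col3a1. Of 20 pan-fibroblast genes, 4 rose and 2 fell, with a median log2 change of 0.04; without Intermediate replicate 1, 1 rose, and without Progenitor replicate 1, 2. The smooth muscle gene Acta2 was low in both groups and not called, at 252 ± 43.2 CPM in Intermediate and 203 ± 95.5 CPM in Progenitor, where the SMC1 and SMC2 libraries averaged 19485 and 14508 CPM. In bulk samples like these, fewer cells of a type and less RNA per cell cannot be told apart.

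In all, 4218 of 19016 genes were called (22.2%): Intermediate was higher for 2419 (12.7%) and lower for 1799 (9.46%). This balance depends on the scaling: with median-of-ratios factors 1966 were higher and 1982 lower, and with upper-quartile factors 1593 were higher and 2473 lower. It also depends on the filter and on the libraries used, with TMM kept. With no filter on low counts 1817 were higher and 1976 lower, and with only the 6 libraries 1843 and 2294. A change of at least 2-fold was found in 971 called genes that were higher (5.11%) and 1029 that were lower (5.41%). The largest changes ran mostly one way: 73 called genes were at least 16-fold lower in Intermediate (0.384%) and 13 at least 16-fold higher (0.0684%). These counts have no floor on level. Fewer genes had at least 1 count in Intermediate, 25880, 26653 and 29677, against 30397, 29943 and 30608 in Progenitor. The part of this difference in the large falls was not tested. The 6 libraries did not overlap in 7365 of all tested genes (38.7%), and 4110 genes were both called and without overlap (21.6% of all tested), which is 96.9% of the genes called higher and 98.2% of those called lower. Within the numbered pairs, 10969 of all tested genes (57.7%) had one sign in all 3, and 4207 of the 4218 called genes did (22.1% of all tested). Without Intermediate replicate 2, 2771 genes were called, and without Progenitor replicate 1, 2879. Genes called higher summed to 356445, 309563 and 290983 CPM in Intermediate, against 130776, 151098 and 162305 CPM in Progenitor. Genes called lower summed to 121110, 108830 and 103983 CPM in Intermediate, against 247044, 226322 and 228636 CPM in Progenitor. The direction of both sums followed from the choice of genes. Principal components were computed on the 6 libraries alone. The first held 56.9% of the variance and had the Intermediate libraries on one side of 0 and the Progenitor libraries on the other. On the second (15.3%), both libraries numbered 1 lay on the positive side and the other 4 on the negative side.

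**Figure D1:**
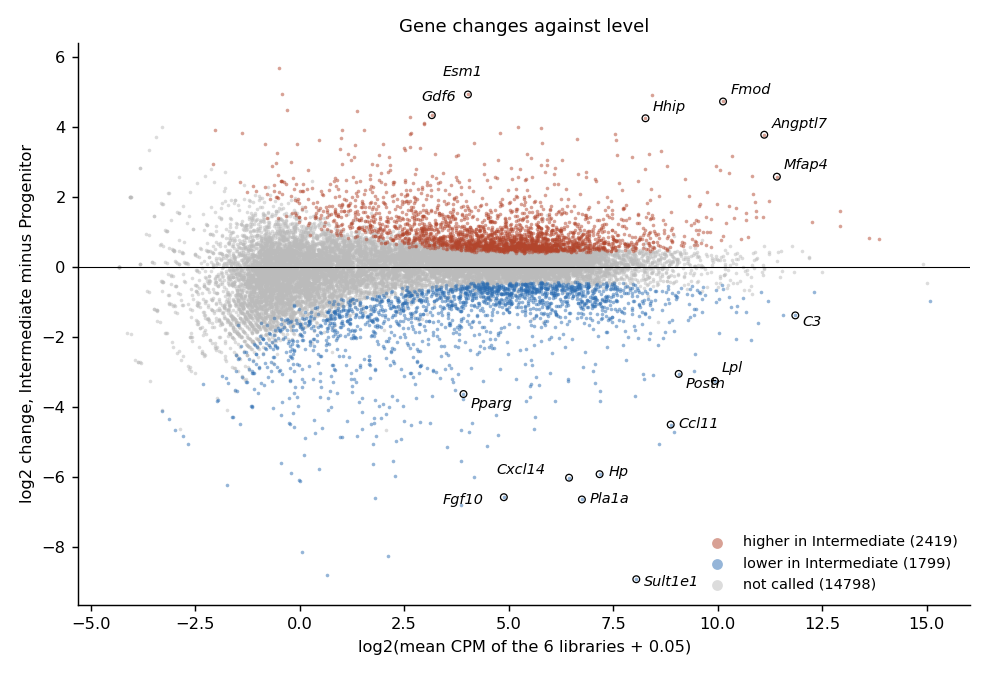
Log2 change of each tested gene, Intermediate minus Progenitor, against the log2 of its mean CPM over the 6 libraries with 0.05 added. Points are genes, coloured by call (2419 higher, 1799 lower), and the circled genes are described in the text; the deepest changes lie below 0, down to -8.92 for Sult1e1.

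The 20 highest log2 changes among abundant genes included Esm1, Fmod, Gdf6, Hhip, Cdh12, Pex5l, Shisa2, Frzb and Angptl7. Fmod, which encodes fibromodulin, a proteoglycan that binds collagen fibrils (chromosome 1, 134037254 to 134048277, GRCm38), had 2757, 1904 and 1810.5 CPM in Intermediate, against 43, 102 and 98.3 CPM in Progenitor. The Intermediate libraries were all far above the Progenitor libraries, a log2 change of 4.73 ± 0.35, edgeR adjusted p = 6.10e-08. Angptl7, a secreted angiopoietin-like protein, had 5103, 3728 and 3572 CPM in Intermediate, against 246, 348 and 306 CPM in Progenitor. It was among the most abundant transcripts of Intermediate and rose by 3.78 ± 0.41 on the log2 scale. Esm1, a secreted proteoglycan best known from endothelial cells, had 48, 22.4 and 23.9 CPM in Intermediate, against 0.729, 1.2 and 1.2 CPM in Progenitor. Kcne4, a regulatory subunit of voltage-gated potassium channels, had 646, 599.6 and 525 CPM in Intermediate, against 54.5, 68.7 and 65.4 CPM in Progenitor. Ccn3 and Ccn2, matricellular proteins of the CCN family, rose by 3.32 ± 0.26 and 3.17 ± 0.33, although 23.2% of the Ccn2 exon bases overlap another annotated gene and its level is uncertain. Smoc1, a calcium-binding matrix protein, rose by 3.67 ± 0.33.

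The 20 lowest log2 changes included a steroid enzyme, a growth factor of fat and lung development, acute-phase proteins and chemokines. Sult1e1, which inactivates oestrogens by sulfation (chromosome 5, 87575969 to 87591594), had 0.87, 1.3 and 1.15 CPM in Intermediate, against 688, 448 and 455 CPM in Progenitor. That is a log2 change of -8.92 ± 0.44, edgeR adjusted p = 1.41e-09, the lowest among all genes tested. Fgf10, a mesenchymal ligand that acts on preadipocytes and on epithelia (chromosome 13, 118669791 to 118792115), had 0.932, 0.377 and 0.511 CPM in Intermediate, against 74.8, 42.1 and 58.2 CPM in Progenitor. Its log2 change was -6.57 ± 0.30, edgeR adjusted p = 2.03e-11. Pla1a, a phospholipase, had 2.17, 2.7 and 1.53 CPM in Intermediate, against 262, 187 and 191 CPM in Progenitor. Hp, the haemoglobin scavenger haptoglobin, had 2.24, 5.9 and 6.0 CPM in Intermediate, against 262, 224 and 368 CPM in Progenitor. For each of these genes, every Intermediate library lay far below every Progenitor library. Agt, the precursor of angiotensin and a known product of perivascular fat, had 5.65, 2.89 and 2.81 CPM in Intermediate, against 103, 87.7 and 91.9 CPM in Progenitor. Vtn, the adhesive plasma protein vitronectin, fell, as did Adam12, a metalloprotease, and Nova1, a splicing regulator, with log2 changes of -5.10 for Vtn, -4.64 for Adam12 and -4.46 for Nova1. Hp, Vtn and Agt are also made in large amounts by liver.

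**Figure D2:**
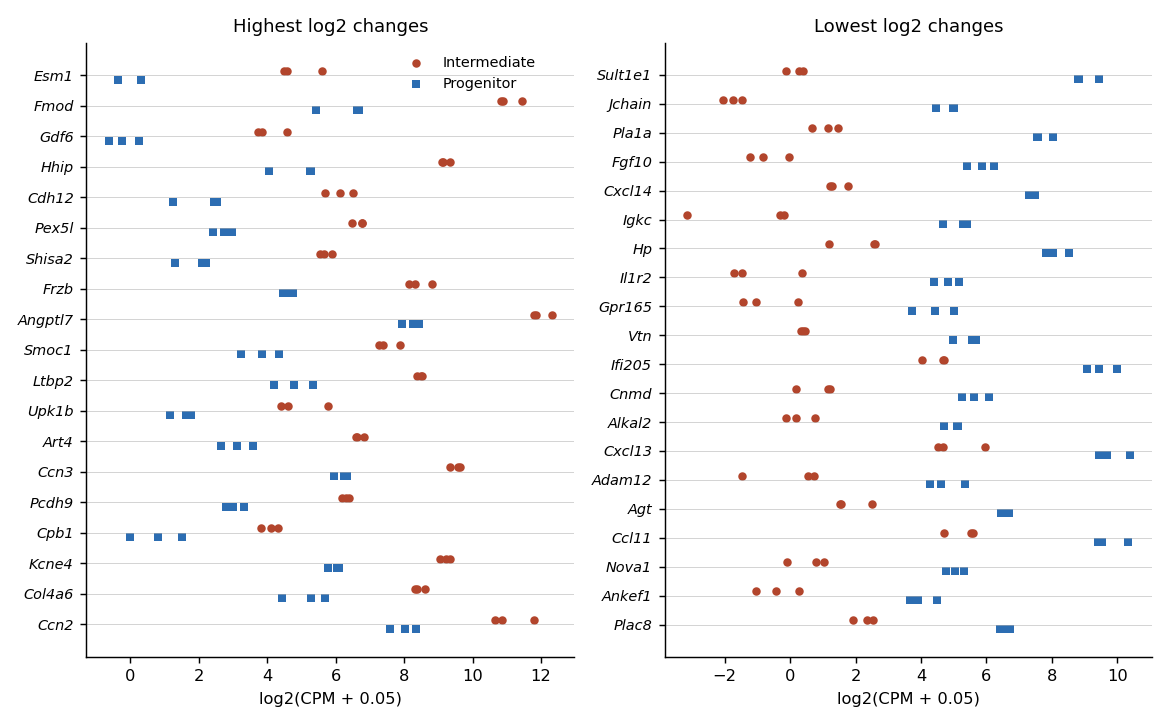
Level of 19 of the 20 genes with the highest log2 change and of the 20 with the lowest among called genes whose libraries do not overlap and whose mean reaches 4 log2 CPM in the higher group. Each point is a library, with 3 Intermediate libraries (red circles, upper) and 3 Progenitor libraries (blue squares, lower) per gene on a log2(CPM + 0.05) axis; no gene shown has overlapping groups.

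By absolute level, the largest rises included those of Col1a2, Sparc, Cst3 and Col1a1, and the largest falls were of Gsn, C3, Gpx3, Ogn and Ly6a. Cst3, the protease inhibitor cystatin C, had 11489, 11300.1 and 9765 CPM in Intermediate, against 4818, 5407 and 4063 CPM in Progenitor. Gsn, the actin-severing protein gelsolin, had 27346, 23109.9 and 19823 CPM in Intermediate, against 41868, 42229 and 52920.5 CPM in Progenitor. Gpx3, the secreted glutathione peroxidase, had 1798, 1726 and 1518 CPM in Intermediate, against 4124, 4768 and 4154 CPM in Progenitor. For each of these 3 genes the groups did not overlap, and the log2 changes were 1.19 ± 0.21 for Cst3, -0.96 ± 0.22 for Gsn and -1.37 ± 0.27 for Gpx3. The type I collagen chain Col1a1 averaged 6989 ± 1453 CPM in Intermediate and 2873 ± 1405 CPM in Progenitor. Col1a2 averaged 18985 ± 2185 CPM in Intermediate and 10762 ± 2985 CPM in Progenitor. Neither call held throughout: without Intermediate replicate 1, edgeR's adjusted p was 0.074 for Col1a1 and 0.088 for Col1a2, and the Col1a2 call was also lost without Intermediate replicate 2 (0.074), Progenitor replicate 1 (0.149) or Progenitor replicate 2 (0.0701). The Col1a2 call depended on the scaling too, with an edgeR adjusted p of 0.0599 with median-of-ratios factors, 0.119 with upper-quartile factors and 0.117 with the exon length offset. The call of Ogn, the proteoglycan osteoglycin, was lost with the replicate number as a block (0.0514) and without Intermediate replicate 1 (0.0643), 2 (0.145) or 3 (0.0983) or Progenitor replicate 1 (0.155) or 2 (0.0745). That of Sparc, a matricellular protein, was lost with upper-quartile factors (0.0552) and without Intermediate replicate 1 (0.1) or Progenitor replicate 1 (0.0616).

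Genes were further grouped into 39 lists by function. The lists with the largest share of members lower in Intermediate were those of interstitial progenitors, of mitochondrially encoded subunits, of committed preadipocytes, of nuclear-encoded oxidative phosphorylation subunits and of chemokines. Those with the largest share of higher members were the mesothelial, Hedgehog, elastic fibre and axon guidance lists. The median log2 change over all tested genes was 0.08. Calls were more frequent among abundant genes. Of the 3803 genes with the highest mean level (from 50.34 CPM), 785 were higher and 528 lower. Of the 3804 with the lowest (up to 0.8492 CPM), 36 were higher and 134 lower. Among protein-coding genes, 25.51% were called. The shares over all tested genes are thus a low bar for lists of abundant genes. Whether a list differs from genes of like level was not tested.

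**Figure D3:**
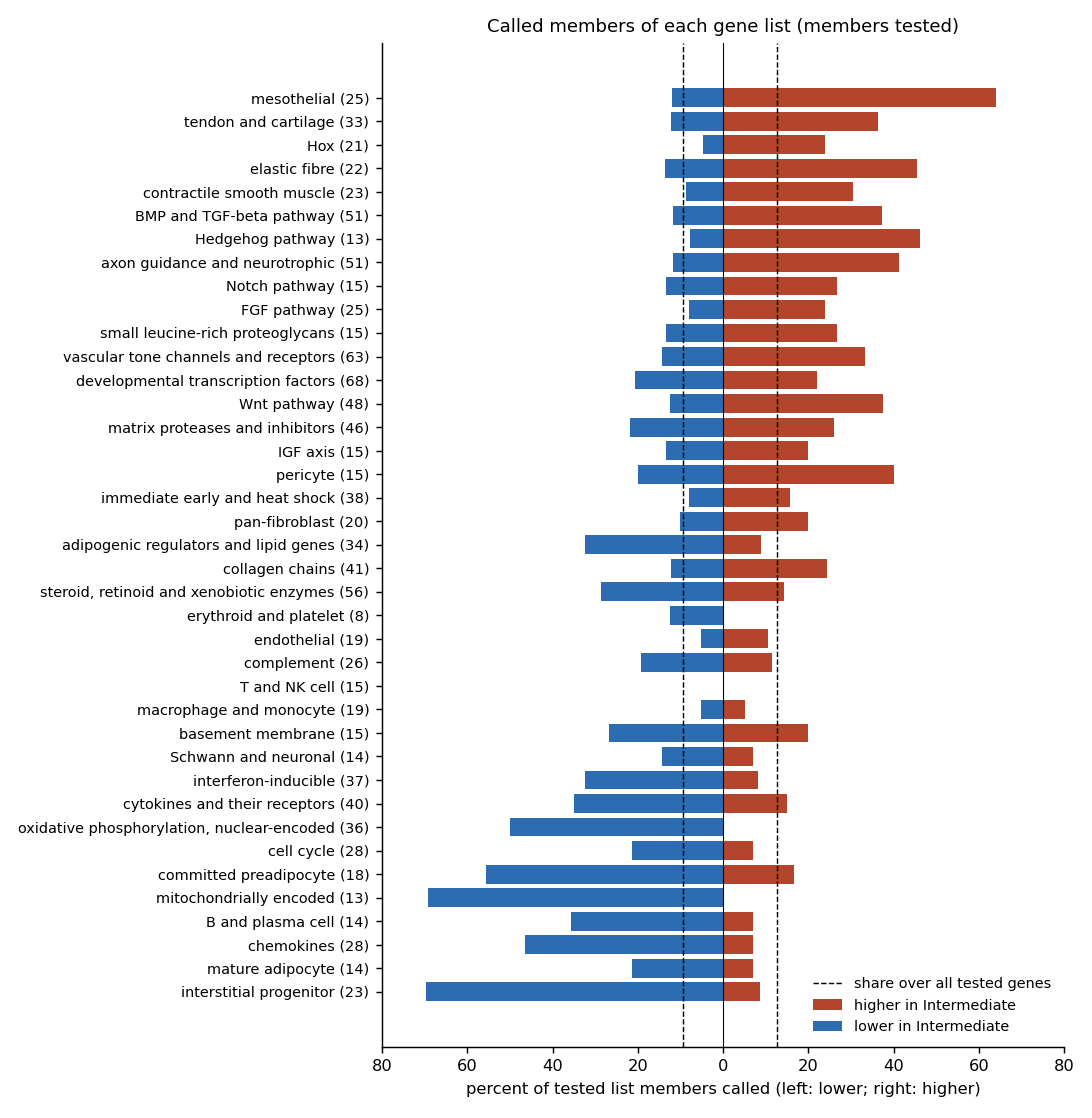
Percent of the tested members of each of the 39 gene lists that were called higher (red, to the right) or lower (blue, to the left) in Intermediate than in Progenitor, ordered by the median log2 change of the list. Dashed lines give the shares over all tested genes, 12.7% higher and 9.46% lower, and the number tested stands beside each name. Genes of low level were called less often, so these lines are a low bar for lists of abundant genes.

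Genes associated with interstitial progenitors, the least committed stromal cells of adipose tissue, were mostly lower in Intermediate. Of 23 tested, 16 fell and 2 rose, with a median log2 change of -1.68. Dpp4, a surface peptidase that marks these cells, had 26.5, 26.7 and 50.1 CPM in Intermediate, against 299.6, 185 and 218 CPM in Progenitor. Ly6a, which encodes the surface antigen Sca-1, had 776, 692 and 568 CPM in Intermediate, against 3726, 2701 and 2238 CPM in Progenitor. Both fell without overlap, with log2 changes of -2.77 ± 0.40 and -2.09 ± 0.35 on the log2 scale. Cd248, the stromal surface protein endosialin, had 161, 85.5 and 76.6 CPM in Intermediate, against 329.7, 521 and 454 CPM in Progenitor, a log2 change of -2.01 ± 0.32, edgeR adjusted p = 2.76e-04. Tnfaip6, a hyaluronan-binding protein, had 82.6, 44.8 and 57.3 CPM in Intermediate, against 443, 364 and 352 CPM in Progenitor, and Efhd1 and Stmn4 fell, with log2 changes of -2.87 ± 0.28 and -2.99 ± 0.29. Pi16, the best known marker of the universal fibroblast, went against this pattern. It stood at 2365, 2309 and 1754 CPM in Intermediate, against 1231, 2242 and 1843 CPM in Progenitor, with overlapping groups and no call (0.27 ± 0.44, edgeR adjusted p = 0.705). The 2 risers, Igfbp5 and Cd9, both lost their call without Intermediate replicate 1 (edgeR adjusted p = 0.0511 and 0.0852).

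Ly6a lies in a cluster of related genes on chromosome 15, and its neighbours were looked at after the values were seen. Ly6c1 had 185, 159 and 124 CPM in Intermediate, against 1673, 1126 and 869 CPM in Progenitor. Ly6c2 had 6.34, 6.66 and 4.22 CPM in Intermediate, against 23.6, 19.3 and 19.3 CPM in Progenitor. Both fell, with log2 changes of -2.97 ± 0.41 and -1.85 ± 0.29 on the log2 scale, as did Ly6k, which shares 47.6% of its exon bases with another gene, while Ly6e, Ly6i and Ly6d were not called. These genes are similar in sequence, so reads may be shared among them and the single values are uncertain.

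Preadipocyte and lipid genes were also more often lower than higher in Intermediate. Of 18 tested members of the committed preadipocyte list, 10 fell and 3 rose (median log2 change -0.63), and of 34 adipogenic regulators and lipid genes, 11 fell and 3 rose (-0.04). Without Intermediate replicate 1, Progenitor replicate 1 or Progenitor replicate 2, 1 adipogenic gene was called higher, and without Progenitor replicate 3, 6 were. Pparg (chromosome 6, 115360951 to 115490399) had 2.24, 2.32 and 2.24 CPM in Intermediate, against 38.1, 18.1 and 27.6 CPM in Progenitor. The Intermediate libraries were nearly equal and all below Progenitor, a log2 change of -3.62 ± 0.33, edgeR adjusted p = 6.45e-07. Lpl, the lipase that releases fatty acids from lipoproteins, had 238, 162 and 158 CPM in Intermediate, against 2282, 1327 and 1693 CPM in Progenitor. Plin2, a coat protein of lipid droplets, had 76.4, 68.3 and 55.4 CPM in Intermediate, against 244, 156 and 165 CPM in Progenitor. Ebf1, Ebf2 and Ebf3, transcription factors that act early in the fat lineage, fell, with log2 changes of -1.14 ± 0.17, -1.53 ± 0.20 and -1.29 ± 0.24. Nr1h3, the oxysterol receptor LXR-alpha, fell, with a log2 change of -1.69 ± 0.16, and Apod, a lipid carrier, fell too, with -2.05 ± 0.39.

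Not every gene linked to fat cells fell. F3, the coagulation initiator tissue factor, which also marks a class of adipose stromal cells reported to restrain adipogenesis, had 3756, 2671 and 2519.6 CPM in Intermediate, against 637, 776 and 698 CPM in Progenitor. It rose by 2.08 ± 0.26, edgeR adjusted p = 7.85e-06. Dio2, the deiodinase that activates thyroid hormone, had 116, 123 and 123 CPM in Intermediate, against 13.5, 21 and 16.3 CPM in Progenitor, with narrow spread in Intermediate and no overlap (2.84 ± 0.20, edgeR adjusted p = 5.15e-09). Ppargc1a, the coactivator of mitochondrial biogenesis, had 8.39, 5.9 and 6.13 CPM in Intermediate, against 1.32, 0.867 and 1.71 CPM in Progenitor. The thermogenic gene Ucp1 stood at 0.0621, 0.754 and 0.383 CPM in Intermediate, against 0.911, 0.267 and 0.442 CPM in Progenitor, near the limit of detection in both groups, and was not called. The adipocyte hormone gene Adipoq, low in both groups, did fall, at 0.373, 0.628 and 0.447 CPM in Intermediate, against 6.97, 2.27 and 3.92 CPM in Progenitor. Its call held in each of 14 alternative fits.

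Hedgehog signalling starts when a ligand binds the receptor Ptch1 and releases Smo, which lets Gli factors turn on targets that include Gli1, Ptch1 and Hhip. In Intermediate, 6 of 13 tested pathway genes rose and 1 fell (median log2 change 0.42), and all 6 risers were called in each of 14 alternative fits. Hhip, a membrane protein that sequesters the ligands (chromosome 8, 79965851 to 80058006), had 654, 559.8 and 551 CPM in Intermediate, against 16.5, 38.5 and 37.6 CPM in Progenitor. Its groups were more than an order of magnitude apart, a log2 change of 4.25 ± 0.31, edgeR adjusted p = 4.89e-08. Ptch1 (chromosome 13, 63508328 to 63573598) had 41.1, 48 and 42.8 CPM in Intermediate, against 9.57, 13.7 and 15.7 CPM in Progenitor. Gli1 had 21.1, 31.9 and 24 CPM in Intermediate, against 4.83, 11.9 and 8.91 CPM in Progenitor. Both were higher in all 3 Intermediate libraries, by 1.76 ± 0.20 and 1.60 ± 0.27 on the log2 scale. The co-receptor Boc rose by 1.40 ± 0.21 and the transducer Smo by 0.74 ± 0.17. The co-receptors Cdon and Gas1, the effector Gli2 and the inhibitor Sufu were not called. Gli3, which acts mainly as the repressor of the pathway, had 21.5, 23.7 and 25.4 CPM in Intermediate, against 29.6, 34.3 and 39.5 CPM in Progenitor. It fell, with a log2 change of -0.55 ± 0.17, edgeR adjusted p = 0.0231, a call that was lost without Intermediate replicate 1 (0.103), Intermediate replicate 2 (0.0876), Progenitor replicate 2 (0.0609) or Progenitor replicate 3 (0.11). Of the ligands, Dhh stood at 2.99 CPM in Intermediate and 2.31 CPM in Progenitor and Ihh at 0.315 CPM in Intermediate and 0.253 CPM in Progenitor, neither called, with 25.2% of the Dhh exon bases shared with another gene.

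**Figure D4:**
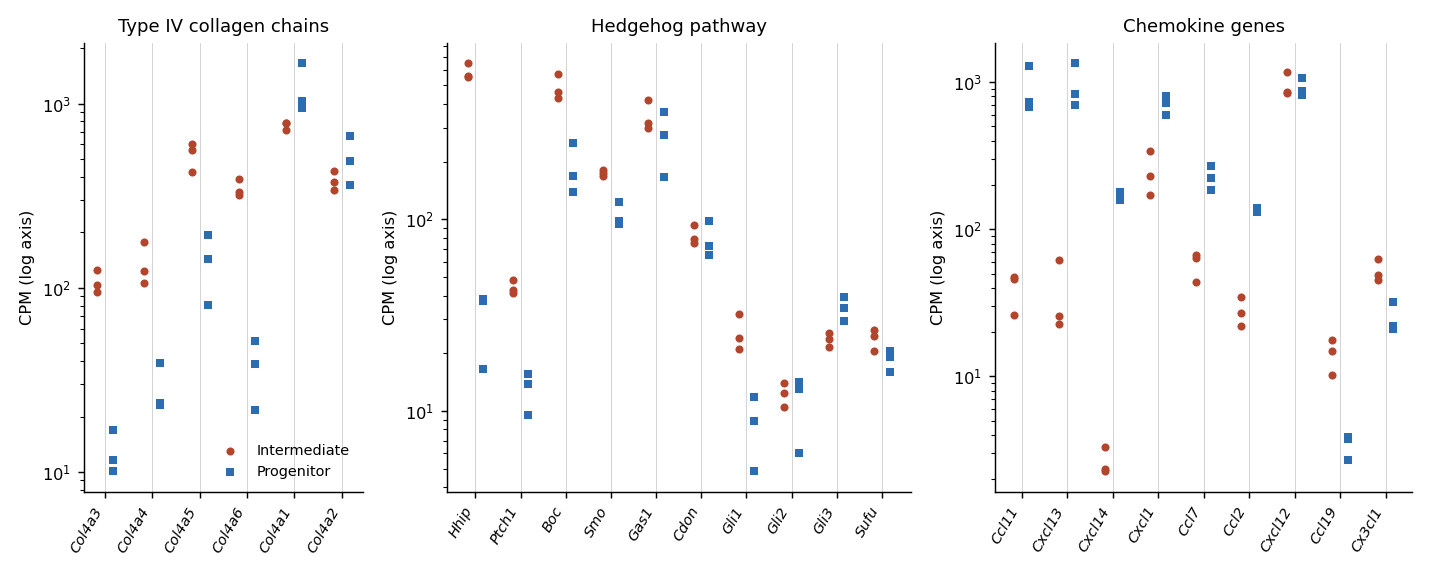
CPM on a log axis in each library for the 6 type IV collagen chains, 10 Hedgehog pathway genes and 9 chemokine genes, with Intermediate (red circles) left of Progenitor (blue squares). Col4a3 to Col4a6, Hhip, Ptch1 and Gli1 lie higher in Intermediate without overlap, Ccl11, Cxcl13 and Cxcl14 lower without overlap, and Col4a2, Gas1 and Cxcl12 overlap.

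The Wnt pathway differed at the receptors and at the secreted inhibitors. Wnt ligands bind Frizzled receptors, Lrp5 and Lrp6 or the Ror kinases, and are held back by Sfrp, Frzb and Dkk proteins. Of 17 receptors and co-receptors, 11 rose and 1 fell, with a median log2 change of 0.85; 7 of the 11 were called in each of 14 alternative fits. These 7 were Fzd1, Fzd2, Fzd6, Fzd7, Fzd8, Ror1 and Ror2. Fzd2 had 65.3, 86.8 and 60.3 CPM in Intermediate, against 14.7, 28.6 and 21.9 CPM in Progenitor, and its log2 change was 1.71 ± 0.21, edgeR adjusted p = 6.27e-06. Fzd1, at 203 CPM in Intermediate and 93.9 CPM in Progenitor, rose by 1.12 ± 0.21, and Ror1 by 1.07 ± 0.18. Among ligands, Wnt5a, which signals through Ror kinases, rose by 1.15 ± 0.22 and Wnt9a by 1.13 ± 0.17, and Wnt11 and Wnt10b fell, with log2 changes of -2.65 ± 0.23 and -2.54 ± 0.56.

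Secreted Wnt modulators split, with 3 of 13 higher and 3 lower. Frzb had 449, 283 and 316 CPM in Intermediate, against 22, 25.9 and 26.7 CPM in Progenitor. Sfrp2, with 16.1% of its exon bases shared with another gene, had 2759, 2059 and 1631 CPM in Intermediate, against 185, 445 and 367 CPM in Progenitor. Both inhibitors rose without overlap, by 3.82 ± 0.34 and 2.69 ± 0.41 on the log2 scale, and Dkk3 by 2.04 ± 0.26. Dkk2 went the other way, with 6.09, 5.9 and 4.66 CPM in Intermediate, against 92.4, 70.3 and 74.7 CPM in Progenitor, a log2 change of -3.83 ± 0.26, edgeR adjusted p = 6.32e-09. Sfrp1 and the Wnt agonist Rspo2 also fell, with log2 changes of -1.22 ± 0.27 and -2.21 ± 0.37. The target genes Axin2 and Lef1 were low in both groups, with means of 1.61 CPM in Intermediate and 1.43 CPM in Progenitor for Axin2, and were not called. Apcdd1, a target that encodes a membrane inhibitor of the pathway, rose by 1.90 ± 0.19.

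BMP and TGF-beta genes were mixed, with 19 of 51 higher and 6 lower (median log2 change 0.45); without Progenitor replicate 1, 12 were called higher. Bmp4 (chromosome 14, 46383520 to 46390669) had 392, 320.2 and 296 CPM in Intermediate, against 64.1, 68.5 and 59.3 CPM in Progenitor. Gdf6, a BMP-family ligand of joint and tendon development, had 23.6, 14.3 and 13.1 CPM in Intermediate, against 0.592, 0.80 and 1.14 CPM in Progenitor. Both ligands rose without overlap, by 2.39 ± 0.30 and 4.34 ± 0.44 on the log2 scale. Tgfb3 rose by 1.49 ± 0.18 and the receptor Bmpr1b by 2.20 ± 0.29, and Bmp7 fell, with a log2 change of -3.79 ± 0.50. Bmper, a secreted modulator that binds BMPs, had 40.9, 34.9 and 38.1 CPM in Intermediate, against 555, 312 and 587 CPM in Progenitor. It fell, with a log2 change of -3.67 ± 0.34, edgeR adjusted p = 1.20e-06, and Fst, which binds activins, fell too, with -1.03 ± 0.21. Chrdl1, a chordin-like BMP antagonist, rose by 0.99 ± 0.19.

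In the FGF list 6 of 25 rose and 2 fell, and besides Fgf10 the other faller, Fgf2, lost its call in each leave-one-out fit but that without Progenitor replicate 1. Fgf16 and Fgf1 rose by 1.39 ± 0.22 and 0.97 ± 0.21, and the feedback inhibitor Spry1 by 0.74 ± 0.17. Notch targets rose, 3 of 5 tested, while no Notch receptor did. Heyl had 218, 156 and 134 CPM in Intermediate, against 38.7, 40.1 and 40.1 CPM in Progenitor. Hey2 had 27, 19 and 14.9 CPM in Intermediate, against 3.96, 6.53 and 5.5 CPM in Progenitor. Both were higher in all 3 Intermediate libraries, by 2.10 ± 0.22 and 1.94 ± 0.23. Notch1 fell, with a log2 change of -0.99 ± 0.22, and the ligand gene Dlk1, a brake on adipogenesis, fell too, with -2.95 ± 0.51. The list count of 4 risers was 2 without Intermediate replicate 1 and 2 without Progenitor replicate 2. Among the IGF-binding proteins, Igfbp3 fell, with a log2 change of -1.85 ± 0.18, and Igfbp7 rose by 0.86 ± 0.22, and Igf1 itself was not called.

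The chains of type IV collagen, the collagen of basement membranes, moved unequally. Type IV collagen forms triple helices, whose chains are drawn from a set of 6. The alpha1 and alpha2 chains are found in nearly all basement membranes. The alpha3 to alpha6 chains are best known from kidney, lung, eye, skin and smooth muscle. Col4a3 had 125, 103 and 95.2 CPM in Intermediate, against 10.1, 17 and 11.6 CPM in Progenitor. Col4a4 had 178, 124 and 106 CPM in Intermediate, against 23.7, 39.1 and 23.2 CPM in Progenitor. Col4a5 had 425, 560.3 and 602 CPM in Intermediate, against 80.9, 144 and 194 CPM in Progenitor. All 3 chains were higher in each Intermediate library than in any Progenitor library. Col4a6 had 319.7, 330.5 and 389.7 CPM in Intermediate, against 21.6, 38.8 and 51.7 CPM in Progenitor, and its log2 change was 3.22 ± 0.24, edgeR adjusted p = 1.74e-08. The other rises were 3.07 ± 0.20 for Col4a3, 2.25 ± 0.24 for Col4a4 and 1.93 ± 0.24 for Col4a5, each called in all 14 alternative fits. Col4a1 had 787, 788 and 721 CPM in Intermediate, against 941, 1033 and 1658 CPM in Progenitor. It fell, with a log2 change of -0.66 ± 0.23, edgeR adjusted p = 0.0409, a call lost without Progenitor replicate 3 (0.29), Intermediate replicate 1 (0.0842), Intermediate replicate 2 (0.108) or Intermediate replicate 3 (0.127). Col4a2 was not called, at 431, 376 and 341 CPM in Intermediate, against 360.4, 490.2 and 668 CPM in Progenitor. Per kilobase of exon, the Intermediate levels were 78.8 CPM for Col4a5, 43.5 for Col4a6, 12.8 for Col4a4 and 10.8 for Col4a3, beside 102 CPM for Col4a1 and 57.8 for Col4a2.

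The 6 genes lie as 3 head-to-head pairs, each on opposite strands with the starts close together, and both members rose in the first 2 of the pairs named here. The annotated starts are 72 bases apart for Col4a3 and Col4a4 on chromosome 1, 1309 apart for Col4a5 and Col4a6 on chromosome X, and 21 apart for Col4a1 and Col4a2 on chromosome 8, where the first exons overlap. Promoter sequences are shown since the members of a pair share the region between them. RefSeq promoter windows (GRCm38.p6, 250 bases before to 50 after the start) matched 5 of the 6 genes, of which 4 are shown; Col4a3 is named only, and Col4a1 is not printed because its start lies within the Col4a2 window. In the following windows, written 5′ to 3′ on the strand of the named gene, capitals mark the bases between the annotated starts of the pair, or, for Col4a2, the bases shared by both first exons.
Col4a4 (chr1:82586800-82587099, minus strand): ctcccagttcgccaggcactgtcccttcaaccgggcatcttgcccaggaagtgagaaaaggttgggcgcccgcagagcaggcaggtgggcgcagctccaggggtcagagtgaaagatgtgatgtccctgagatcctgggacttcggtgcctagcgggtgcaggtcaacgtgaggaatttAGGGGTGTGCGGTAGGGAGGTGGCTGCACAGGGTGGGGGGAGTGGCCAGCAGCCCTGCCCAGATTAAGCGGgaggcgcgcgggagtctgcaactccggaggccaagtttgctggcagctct
Col4a6 (chrX:141474027-141474326, minus strand): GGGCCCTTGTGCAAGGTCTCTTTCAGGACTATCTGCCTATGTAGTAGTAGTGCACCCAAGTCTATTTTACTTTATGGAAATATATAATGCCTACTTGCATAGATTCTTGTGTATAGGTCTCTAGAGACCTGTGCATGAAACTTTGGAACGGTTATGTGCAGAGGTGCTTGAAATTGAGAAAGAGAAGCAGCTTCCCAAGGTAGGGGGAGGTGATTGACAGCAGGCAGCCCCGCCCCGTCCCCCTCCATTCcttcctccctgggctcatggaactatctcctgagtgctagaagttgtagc
Col4a5 (chrX:141475169-141475468, plus strand): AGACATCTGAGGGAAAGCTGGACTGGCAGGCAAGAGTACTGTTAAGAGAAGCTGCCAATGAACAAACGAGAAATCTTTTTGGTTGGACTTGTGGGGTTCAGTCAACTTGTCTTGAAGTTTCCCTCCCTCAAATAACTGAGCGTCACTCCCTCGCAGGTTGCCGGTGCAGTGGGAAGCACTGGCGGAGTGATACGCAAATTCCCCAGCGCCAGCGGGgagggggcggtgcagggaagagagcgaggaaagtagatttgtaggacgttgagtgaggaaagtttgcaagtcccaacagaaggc
Col4a2 (chr8:11312555-11312854, plus strand): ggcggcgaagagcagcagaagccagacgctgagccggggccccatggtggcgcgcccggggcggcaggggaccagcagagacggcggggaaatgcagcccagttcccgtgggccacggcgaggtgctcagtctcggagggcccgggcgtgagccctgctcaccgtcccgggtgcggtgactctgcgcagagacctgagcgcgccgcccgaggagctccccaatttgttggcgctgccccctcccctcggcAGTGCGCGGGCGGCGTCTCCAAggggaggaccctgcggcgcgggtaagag
The window of Col4a4 spans all bases between its pair of starts, while those of Col4a5 and Col4a6 cover the ends of a longer gap. The GC content was 63.3% for Col4a4, 48.3% for Col4a6, 52.7% for Col4a5 and 73.7% for Col4a2, beside a median of 52.7% over 32851 promoter windows. The GC box GGGCGG, searched on both strands as GGGCGG and CCGCCC, occurred 3 times in the Col4a2 window, 1 time each in those of Col4a5 and Col4a6, and not in that of Col4a4; 35.7% of all windows hold at least 1. A CCAAT box, searched as CCAAT and ATTGG, occurred 1 time each in the Col4a5 and Col4a2 windows, and 37.4% of all windows hold at least 1.

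Laminins, the other scaffold of basement membranes, split by chain. Lamc3 had 118, 110.5 and 115 CPM in Intermediate, against 19.5, 16 and 31.2 CPM in Progenitor. Its groups did not overlap, with a log2 change of 2.36 ± 0.21, edgeR adjusted p = 1.77e-07. Lamb1 and Lama4 fell, with log2 changes of -1.82 ± 0.25 and -1.19 ± 0.18. Of 15 basement membrane genes besides the collagens, 3 rose and 4 fell; without Progenitor replicate 1 or Progenitor replicate 2, 1 was called higher.

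Elastic fibre genes were more often higher than lower in Intermediate, 10 of 22 tested against 3 lower, with a median log2 change of 0.59. Without Intermediate replicate 1, 7 were called higher, and without Progenitor replicate 1, 8. Eln, the elastin precursor (chromosome 5, 134702593 to 134747323), had 2363, 1706 and 1231 CPM in Intermediate, against 150.0, 274 and 295 CPM in Progenitor. Mfap4, which aids elastic fibre assembly, had 6068, 4305 and 3682 CPM in Intermediate, against 538, 997 and 807 CPM in Progenitor. Both rose without overlap, by 2.88 ± 0.31, edgeR adjusted p = 2.46e-06 for Eln and 2.59 ± 0.32 for Mfap4. Ltbp2, a microfibril protein, had 364, 329.8 and 363 CPM in Intermediate, against 18.1, 27.3 and 40.4 CPM in Progenitor. Fbln5, which organises elastin, rose by 1.42 ± 0.30, and Lox, the enzyme that cross-links elastin and collagen, by 1.33 ± 0.23. Efemp1 and Emilin2 fell, with log2 changes of -2.05 ± 0.32 and -2.28 ± 0.39. Fbn1, the backbone of microfibrils, was not called, at 484 CPM in Intermediate and 686 CPM in Progenitor, with 20.1% of its exon bases shared with another gene. It was called lower without Progenitor replicate 1 (edgeR adjusted p = 0.0228) and with the exon length offset (0.0388).

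Genes known from tendon and cartilage followed, with 12 of 33 higher and 4 lower and a median log2 change of 0.92. Without Intermediate replicate 2 or Intermediate replicate 3, 2 were called lower. Mgp, an inhibitor of calcification in vessel wall and cartilage, had 3866, 2851 and 2599.6 CPM in Intermediate, against 556, 619.9 and 345 CPM in Progenitor. Mkx, a transcription factor of tendon, had 6.03, 5.02 and 6.45 CPM in Intermediate, against 0.82, 0.60 and 0.821 CPM in Progenitor, and Tnmd, a tendon membrane protein, had 68.5, 62.1 and 52.4 CPM in Intermediate, against 18.8, 20.5 and 13.1 CPM in Progenitor. All 3 were higher in each Intermediate library, by 2.61 ± 0.28 for Mgp, 2.94 ± 0.35 for Mkx and 1.80 ± 0.19 for Tnmd. Matn3, a cartilage matrilin, rose by 3.84 ± 0.41. Cnmd, chondromodulin, a relative of Tnmd, went the other way with 2.17, 2.26 and 1.09 CPM in Intermediate, against 66.8, 38.1 and 49.3 CPM in Progenitor. Postn, periostin, had 119, 115 and 113 CPM in Intermediate, against 1207, 667 and 998 CPM in Progenitor, a log2 change of -3.05 ± 0.22, edgeR adjusted p = 9.61e-09. The transcription factors Scx and Sox9 were not called, apart from Sox9 without Intermediate replicate 1 (edgeR adjusted p = 0.0144).

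Among small leucine-rich proteoglycans, which bind collagen fibrils, Fmod, Bgn, Prelp and Podn rose, 4 of 15 tested, and 2 fell. Bgn had 4137, 2429 and 2219 CPM in Intermediate, against 729.9, 1159 and 1004 CPM in Progenitor, without overlap, a change of 1.60 ± 0.28. In 5 of the 6 leave-one-out fits, all but that without Progenitor replicate 3, 1 of the 2 was called lower. In the wider collagen list, 10 of 41 rose and 5 fell; without Intermediate replicate 1, 2 or 3 or Progenitor replicate 3, 3 were called lower. Col5a3 and Col6a5 fell, with log2 changes of -2.98 ± 0.27 and -2.06 ± 0.36, and Col16a1, Col8a2 and Col11a1 rose by 1.51 ± 0.27, 1.56 ± 0.23 and 2.71 ± 0.52. Fn1, fibronectin, had 532, 319 and 502 CPM in Intermediate, against 982, 1499 and 2489 CPM in Progenitor, and fell, with a log2 change of -1.88 ± 0.31. Among proteases and inhibitors, 12 of 46 rose and 10 fell. Adamts2, which trims procollagen, had 2925, 2962 and 2547 CPM in Intermediate, against 738, 1079 and 1334 CPM in Progenitor. Timp3, an inhibitor bound to matrix, rose by 1.70 ± 0.24, with 21.3% of its exon bases shared with another gene, and Reck by 1.36 ± 0.19. Plau, the urokinase plasminogen activator, fell, with a log2 change of -3.73 ± 0.33.

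Channels and receptors that set vascular tone in smooth muscle and pericytes were more often higher than lower, 21 of 63 against 9 lower, with a median log2 change of 0.29. All 21 risers were called in each of 14 alternative fits. Kcnj8 and Abcc9, neighbours on chromosome 6 that encode the pore and regulatory subunits of a vascular ATP-sensitive potassium channel, moved together. Kcnj8 had 214, 179 and 142 CPM in Intermediate, against 66.8, 71.9 and 60.8 CPM in Progenitor. Abcc9 had 318, 309.6 and 364 CPM in Intermediate, against 73.5, 87.8 and 146 CPM in Progenitor. Neither overlapped, with changes of 1.43 ± 0.18 for Kcnj8 and 1.69 ± 0.24 for Abcc9. Kcnma1, the pore of the large-conductance calcium-activated potassium channel, rose by 2.51 ± 0.18. Piezo2, a channel opened by stretch, had 42.5, 58.4 and 54 CPM in Intermediate, against 6.74, 12.1 and 14.8 CPM in Progenitor, and Piezo1 rose by 1.36 ± 0.20, with 24.6% of its exon bases shared with another gene. The endothelin receptor Ednra rose by 1.67 ± 0.23. Npr2, the receptor of C-type natriuretic peptide, rose by 1.48 ± 0.18 while Npr1 fell, with a log2 change of -1.56 ± 0.31. Both subunits of the nitric oxide receptor rose, Gucy1a1 by 1.64 ± 0.20 and Gucy1b1 by 1.19 ± 0.19. The prostaglandin receptor Ptger3 had 0.311, 0.628 and 0.639 CPM in Intermediate, against 14.5, 8.93 and 12.6 CPM in Progenitor, and the adrenergic receptor Adra1b fell, with a log2 change of -3.69 ± 0.34.

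The contractile proteins of smooth muscle did not show one pattern. Of 23 markers, 7 rose and 2 fell; without Intermediate replicate 2, 4 rose, and without Progenitor replicate 1, 2. Myh11 was not called, at 90.3 CPM in Intermediate and 79.3 CPM in Progenitor. Des, the muscle intermediate filament desmin, fell, with a log2 change of -1.93 ± 0.19. The summed level of the list was 2224, 2565 and 2311 CPM in Intermediate, against 1213, 1936 and 2118 CPM in Progenitor, while the SMC1 and SMC2 libraries averaged 67429.8 and 46213 CPM. Of 15 pericyte markers, 6 rose and 3 fell: Pdgfrb had 662, 624 and 621 CPM in Intermediate, against 238, 215 and 459.8 CPM in Progenitor, and Steap4 fell, with a log2 change of -1.28 ± 0.23.

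Axon guidance and neurotrophic genes were also more often higher than lower, 21 of 51 against 6 lower, with a median log2 change of 0.38. Without Progenitor replicate 3, 3 were called lower. Slit2, a secreted repellent, had 95.6, 132 and 136 CPM in Intermediate, against 16, 22.8 and 31.6 CPM in Progenitor. Epha3, an ephrin receptor, had 555, 534 and 596 CPM in Intermediate, against 107, 119 and 133 CPM in Progenitor. Both rose without overlap, by 2.37 ± 0.24 and 2.23 ± 0.21 on the log2 scale. Ntn4, a netrin found in basement membranes, had 552, 525 and 460.1 CPM in Intermediate, against 149.5, 185 and 209 CPM in Progenitor, also without overlap. The repellent Sema3d rose by 1.72 ± 0.24. Gfra2, the receptor of neurturin, had 126, 70.6 and 53 CPM in Intermediate, against 7.93, 10.1 and 11 CPM in Progenitor. Its ligand gene Nrtn rose by 1.84 ± 0.32, while Ret and Gfra1, the signalling and ligand-binding receptors of the same family, fell, with log2 changes of -2.14 ± 0.33 and -1.41 ± 0.34. Ntf3, neurotrophin-3, and its receptor gene Ntrk3 rose by 1.41 ± 0.21 and 1.36 ± 0.22.

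Among developmental transcription factors, 15 of 68 rose and 14 fell. The forkhead factors went one way: 7 of 11 tested rose and 0 fell, with a median log2 change of 1.18, and 6 of the 7 were called in each of 14 alternative fits. Foxd1 had 26.7, 25.7 and 15.8 CPM in Intermediate, against 2.73, 6.2 and 2.59 CPM in Progenitor. Foxc2 had 29.1, 24.4 and 18.1 CPM in Intermediate, against 3.96, 6.8 and 3.85 CPM in Progenitor. Both rose without overlap, by 2.58 ± 0.33 and 2.30 ± 0.23 on the log2 scale, and Foxs1, Foxc1 and Foxp2 by 2.23 ± 0.26, 1.20 ± 0.18 and 1.18 ± 0.23. The T-box factors split, with Tbx1 and Tbx2 higher by 1.96 ± 0.35 and 1.46 ± 0.28, and Tbx3, Tbx5 and Tbx20 lower. Nr2f2, known for venous identity, had 75.5, 74.7 and 64.4 CPM in Intermediate, against 11.4, 24.9 and 16.4 CPM in Progenitor, a log2 change of 2.03 ± 0.22, edgeR adjusted p = 2.35e-06. Gata6, a vascular and mesothelial factor, rose by 1.31 ± 0.21, Pax1 by 2.82 ± 0.39 and Meis1 by 0.99 ± 0.15. Msc fell, with a log2 change of -1.53 ± 0.32, with 21.2% of its exon bases shared with another gene. Of 21 Hox genes, 5 rose and 1 fell; without Intermediate replicate 1, Intermediate replicate 2 or Progenitor replicate 3, 3 rose, and in all 6 leave-one-out fits 0 fell. Hoxb6 was the 1 Hox gene called in each of 14 alternative fits, with a change of 0.99 ± 0.22.

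Enzymes of steroid, retinoid and xenobiotic metabolism were more often lower, with 16 of 56 lower and 8 higher. Besides Sult1e1, Aldh1a3, which makes retinoic acid, fell, with a log2 change of -2.21 ± 0.26, and Mgst1, a glutathione transferase, had 270.1, 199 and 185 CPM in Intermediate, against 910.3, 770.4 and 655 CPM in Progenitor. Cyp26b1, which degrades retinoic acid, and Rbp4, the retinol carrier, rose by 1.80 ± 0.41 and 1.55 ± 0.26. The flavin-containing monooxygenases, which oxidise amines and sulfides, were looked at after the values were seen. Fmo2 (chromosome 1, 162874317 to 162898726) had 4102, 3582 and 3716 CPM in Intermediate, against 878, 1116 and 1091 CPM in Progenitor. Its groups did not overlap, and it rose by 1.89 ± 0.24, edgeR adjusted p = 1.13e-05. Its neighbours on chromosome 1 Fmo6, Fmo4 and Fmo1 rose by 2.34 ± 0.34, 1.45 ± 0.32 and 1.02 ± 0.22, and Fmo5, on chromosome 3, was not called. Fmo genes are similar in sequence, and reads may be shared among them.

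Chemokine genes were more often lower than higher in Intermediate, 13 of 28 tested against 2 higher, with a median log2 change of -1.16. Ccl11, the eosinophil attractant eotaxin, had 47.5, 45.8 and 26.1 CPM in Intermediate, against 1285, 738 and 677 CPM in Progenitor. Cxcl13, which draws B cells, had 61.5, 22.9 and 25.5 CPM in Intermediate, against 1347, 828 and 697 CPM in Progenitor. Cxcl14, which acts on monocytes, had 2.36, 2.26 and 3.32 CPM in Intermediate, against 158, 178 and 179 CPM in Progenitor. All 3 were lower in each Intermediate library, with log2 changes of -4.50 ± 0.39, edgeR adjusted p = 9.08e-07 for Ccl11, -4.71 ± 0.67 for Cxcl13 and -6.01 ± 0.27 for Cxcl14. Ccl2, Ccl7, Ccl8 and Ccl11 lie in one cluster on chromosome 11 and all fell, with log2 changes of -2.28 ± 0.22 for Ccl2 and -1.96 ± 0.27 for Ccl7. The Ccl8 call was lost without Intermediate replicate 1 (0.056), Intermediate replicate 3 (0.0669) or Progenitor replicate 2 (0.0606). The stromal chemokine Cxcl12 was abundant and not called, at 957 ± 190.4 CPM in Intermediate and 916 ± 128 CPM in Progenitor. Ccl19 and Cx3cl1 rose by 2.04 ± 0.32 and 1.06 ± 0.21.

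Complement genes did not move as a group, with 3 of 26 higher and 5 lower. The list summed to 24797, 23227 and 24748 CPM in Intermediate, against 16581, 18533 and 22423 CPM in Progenitor, higher in Intermediate although more members fell. C3, the central component, had 1708, 2008 and 2471 CPM in Intermediate, against 3957, 5059 and 7059 CPM in Progenitor. The groups did not overlap, and C3 fell, with a log2 change of -1.38 ± 0.32, edgeR adjusted p = 0.00506. Cd55, a membrane inhibitor of complement that also marks progenitors, fell, with a log2 change of -1.86 ± 0.40. Cytokines and their receptors were lower in 14 of 40 and higher in 6. Without Intermediate replicate 2, 8 were lower, and without Intermediate replicate 3 or Progenitor replicate 3, 9. Il6 had 96.7, 67.4 and 104 CPM in Intermediate, against 275, 276 and 246 CPM in Progenitor, a log2 change of -1.57 ± 0.22, edgeR adjusted p = 2.71e-05. Il1r2, the decoy receptor of interleukin 1, had 1.24, 0.314 and 0.255 CPM in Intermediate, against 35.8, 28.5 and 21.1 CPM in Progenitor, and Il1rl2, the receptor of interleukin 36, fell, with a log2 change of -3.18 ± 0.28. Tnfrsf11b, the decoy receptor osteoprotegerin, rose by 2.96 ± 0.24.

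Interferon-inducible genes were lower in 12 of 37 and higher in 3, with a median log2 change of -0.34; with upper-quartile scaling, 0 were higher. Iigp1, an interferon-induced GTPase, had 21.1, 26.6 and 29.3 CPM in Intermediate, against 129.5, 84.1 and 94.9 CPM in Progenitor. Ifi205 had 25.4, 16.3 and 26.1 CPM in Intermediate, against 1009, 541 and 687 CPM in Progenitor, and Ifi204 had 62.6, 53.9 and 61 CPM in Intermediate, against 712, 417 and 503 CPM in Progenitor. Both fell without overlap, with log2 changes of -5.04 ± 0.56 and -3.20 ± 0.34. They belong to the Ifi200 family of DNA sensors on chromosome 1, looked at as a family after the values were seen, of which 7 of 9 fell and 0 rose. Their sequences are near copies, so reads may be split among them. Among classical members, Mx2 fell, with a log2 change of -1.20 ± 0.29, while Ifit3 rose, with 0.70 ± 0.18, a call lost with upper-quartile scaling (0.0576).

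Markers of other cell types were measured in the same libraries. Mesothelial cells line the outer surface of organs, and 16 of 25 of their markers rose while 3 fell. Upk3b had 59.6, 60.8 and 119.6 CPM in Intermediate, against 9.34, 17.5 and 13.4 CPM in Progenitor, and Msln had 31.3, 27.3 and 71.7 CPM in Intermediate, against 4.38, 10.6 and 7.2 CPM in Progenitor. Intermediate replicate 3 was the highest library for both. A subset of 10 epithelial markers among them, picked after the values were seen (Krt7, Krt8, Krt18, Krt19, Upk1b, Upk3b, Msln, Lrrn4, Muc16 and Bnc1), had summed levels of 198, 185 and 444 CPM in Intermediate, against 31.7, 52.5 and 44.9 CPM in Progenitor. All 10 had been called higher, so their higher sum followed from the choice. None was at 0 in any of the 6 libraries. Muc16 lost its call without Intermediate replicate 3 (edgeR adjusted p = 0.151), Progenitor replicate 1 (0.107) or Progenitor replicate 3 (0.0551). The mesothelial transcription factor Wt1 went the other way, at 3.17, 3.96 and 9.96 CPM in Intermediate, against 13.5, 22.1 and 18.1 CPM in Progenitor. Its fall was not called without Intermediate replicate 2 (0.057). The whole mesothelial list, which holds abundant genes that stromal cells also express, summed to 3727, 3897 and 4701 CPM in Intermediate, against 5287, 6673 and 8743 CPM in Progenitor. The part of these markers in the other rises was not tested.

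Endothelial markers were called in 3 of 19: Flt1 and Erg rose, and Tek, the angiopoietin receptor, had 13.6, 15.4 and 13 CPM in Intermediate, against 124, 92.9 and 122 CPM in Progenitor. Without Intermediate replicate 2, 2 fell. Their summed level was 209.5, 288 and 212 CPM in Intermediate, against 244, 300.3 and 358 CPM in Progenitor. Pecam1 was not called, at 57.8 CPM in Intermediate and 43.5 CPM in Progenitor. The leukocyte gene Ptprc stood at 8.08 CPM in Intermediate and 9.51 CPM in Progenitor, not called, and 15 T and NK cell markers had a median log2 change of -0.25. Of 19 macrophage markers, 1 rose and 1 fell; among the leave-one-out fits, that without Progenitor replicate 3 called 1 lower, and the others called 0 in either direction. Mature adipocyte markers fell in 3 of 14 and rose in 1. Antibody transcripts of plasma cells were lower in Intermediate. Jchain, the joining chain of secreted antibodies, had 0.249, 0.314 and 0.192 CPM in Intermediate, against 22.1, 32.1 and 31.3 CPM in Progenitor, and Igkc had 0.0621, 0.754 and 0.83 CPM in Intermediate, against 41.9, 25.7 and 38.8 CPM in Progenitor. Of 14 B and plasma cell genes, 5 fell and 1, Sdc1, rose, and the list summed to 714, 639 and 596 CPM in Intermediate, against 669, 603 and 676 CPM in Progenitor, with 0 to 4 members at 0 in the Intermediate libraries and 0 in the Progenitor libraries. Without Intermediate replicate 1, Intermediate replicate 2, Progenitor replicate 2 or Progenitor replicate 3, 2 fell, and without Intermediate replicate 3, 3. The part of these cells in the lower immune genes was not tested.

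Among genes of the mitochondria and of ribosomes, each call was lower in Intermediate. Of 36 nuclear-encoded oxidative phosphorylation subunits, 18 fell and 0 rose (median log2 change -0.48), and of 13 mitochondrially encoded ones, 9 fell and 0 rose (-0.90). Of 80 ribosomal protein genes tested, grouped after the values were seen, 72 fell and 0 rose. The first count was 11 without Intermediate replicate 1, 10 without Intermediate replicate 2, 8 without Intermediate replicate 3, 8 without Progenitor replicate 1 and 9 without Progenitor replicate 2, and the second was 5 without Progenitor replicate 2. Ndufa4 had 106, 109 and 102 CPM in Intermediate, against 266, 263 and 197 CPM in Progenitor, and Cox6c had 99.5, 109 and 93.4 CPM in Intermediate, against 249, 258 and 171 CPM in Progenitor, both without overlap. The mitochondrial genome held 0.541, 0.545 and 0.540% of counts in Intermediate, against 1.20, 1.45 and 0.855% in Progenitor. Ribosomal protein genes held 0.526, 0.634 and 0.612% in Intermediate, against 1.34, 1.45 and 0.990% in Progenitor. Neither share overlapped between the groups, and both had an exact two-sided permutation p of 0.1, the smallest that 3 against 3 libraries allow.

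Calls moved with transcript length. Among the protein-coding genes with the shortest exon length (median 1767 bases), 237 were higher and 554 lower in Intermediate, and among those with the longest (median 9876 bases), 695 were higher and 163 lower. Processed pseudogenes, which are short, were lower in 140 of 1118 and higher in 7. When a trend of level with exon length was taken out of each library, an adjustment chosen after the values were seen, the counts were 286 higher and 411 lower in the shortest group and 382 higher and 263 lower in the longest. With that adjustment, 11 nuclear-encoded subunits, 6 mitochondrially encoded subunits and 66 ribosomal protein genes fell, and the Hedgehog, elastic fibre and tendon lists had 6, 10 and 12 members called higher, while the Wnt list had 14 in place of 18, the mesothelial list 14 in place of 16 and the collagen list 9 in place of 10.

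**Figure D5:**
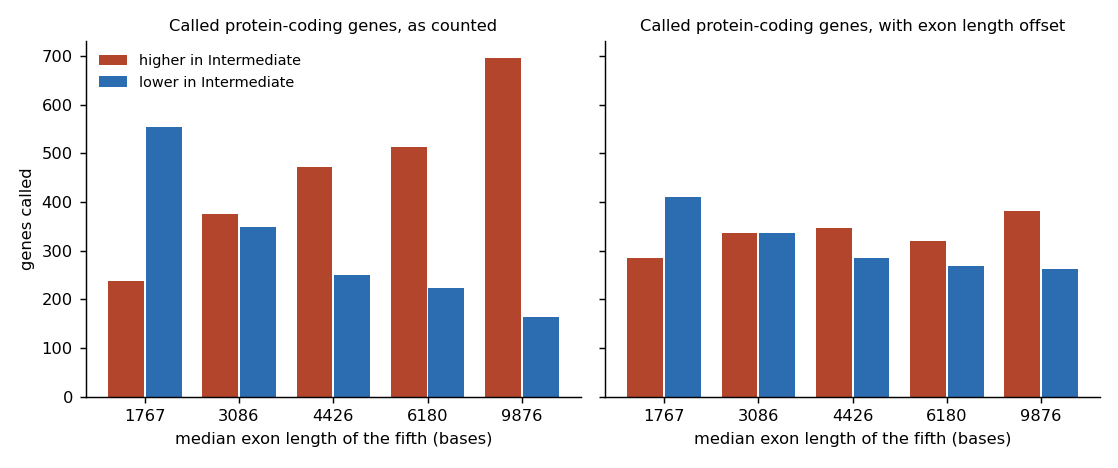
Number of protein-coding genes called higher (red, left bar) or lower (blue, right bar) in Intermediate in 5 groups of 3001 to 3003 genes by exon length, as counted (left) and with the trend of level with exon length removed (right). As counted, higher calls grew with length, to 695 in the longest group, and lower calls shrank, to 163; with the trend removed the longest group held 382 and 263.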

How the data were processed

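The authors deposited raw counts per gene, whole numbers of reads, which were used here; their normalized and regularized-log tables were not used. Per the submitters' processing notes, the tools were STAR 2.5.2a and DESeq2 1.26.0 with the build mm10; the counting program and annotation release are not given in the sources used here. Names missing from the table and coordinates come from GENCODE M21 (GRCm38). Genes passing filterByExpr were fitted with the quasi-likelihood test (Benjamini-Hochberg adjusted p) of edgeR 4.0.16 (R 4.3.3) with 1 mean per group over all 12 libraries, TMM scaling, robust dispersions (common biological coefficient of variation 0.206) and 8 residual degrees of freedom. Reads of amplified cDNA do not each stand for 1 molecule. No 2 replicates agreed within sampling noise, and the code was tested on simulated data.

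Deviations from the group mean correlated across genes at 0.171, 0.191 and 0.170 between same-numbered Intermediate and Progenitor libraries. For this reason the numbers were taken to pair the libraries. Correlations between others were -0.101 to -0.067. Deviations within a group sum to 0, so these negative values follow from the positive ones and add no separate evidence. Values in the text are from the fit without a block.

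Named genes are the 20 highest and 20 lowest log2 changes and the 10 largest CPM differences each way among called, non-overlapping genes of at least 4 log2 CPM, called members of the described lists and 12 identity genes. The members and lists were chosen with earlier results of these data known. Alternatives were other scaling, filter, test, libraries and block, and leaving out each library. Some of these genes are not reported here.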

Additional observations from a re-analysis of the deposited data

How the results depend on the processing

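In each of 14 alternative fits, the genes called both there and in the reported fit kept their direction. Of 473 called genes named by rank or listed, 342 were called in all 14. The number of genes called ran from 2771 (without Intermediate replicate 2) to 4105 when a library was left out, the number called lower from 1155 to 1626, and the number called higher from 1616 to 2479. Under a replicate block, the calls came to 4594 (2583 higher and 2011 lower); with the block and only the 6 libraries, 5170 were called, 2732 of them lower. Scaling moved the balance: 57.4% of calls were higher with TMM, 49.8% with median-of-ratios factors and 39.2% with upper-quartile factors (1593 higher, 2473 lower), as the median log2 change of all genes moved to 0.02 and -0.08 from 0.08. The higher share was 47.9% with no filter on low counts, 50.2% with DESeq2, 44.6% with only the 6 libraries (47.2% with the block too), and 51.7% with the exon length offset, chosen after seeing the data, which called 3533 genes. With the block, 6 of the listed or named called genes lost their call, Ogn among those described here, and 23 that were not called gained one, none of them described here; with the block and only the 6 libraries, 3 lost and 92 gained a call, Cd34 among them. With 3 libraries a group, single low genes are the least precise.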

Other observations

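Of 38 immediate early and heat shock genes, which can be induced by tissue digestion, 6 were higher and 3 lower in Intermediate. These shares were near those over all tested genes, and were not compared with genes of like level. Hspa1b, an inducible heat shock protein, had 1093, 1813 and 1069 CPM in Intermediate, against 443, 573 and 510.4 CPM in Progenitor, and Hspa1a shares much of its sequence with it. Nr4a2, an early response receptor, had 102, 83.4 and 121 CPM in Intermediate, against 44.6, 56.9 and 46.2 CPM in Progenitor, and Myc, an early growth regulator, had 114, 70.1 and 86.5 CPM in Intermediate, against 284, 275 and 309.5 CPM in Progenitor. Hspa1b and Nr4a2 rose by 1.38 ± 0.21 and 1.05 ± 0.19, and Myc fell, with a log2 change of -1.68 ± 0.19. Cell cycle genes were low in both groups, with 2 of 28 higher and 6 lower; the number lower was 0 without Intermediate replicate 2 and at most 3 without any other library. Rrm2, a subunit of ribonucleotide reductase, had 26.5, 24.6 and 20.1 CPM in Intermediate, against 11.7, 13.3 and 8.78 CPM in Progenitor, without overlap.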
